A study of Mus musculus with 3 samples.

Results

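The adhesion G protein-coupled receptors (GPCRs) described here are 10 genes, chosen by symbol with their values on these arrays already known: Adgre1, Adgre4, Adgre5, Adgrl1, Adgrl2, Adgrl3, Adgrg1, Adgrg3, Adgrg5 and Adgrg6. Of these, 9 had at least 1 probe set annotated to that gene alone, out of 19938 such genes, and they held 16 of the 35556 probe sets. No probe set named Adgrg5 alone, and it was not analysed here. RNA of CD11c(high) CD11b+ dendritic cells (DCs) from mouse spleen was hybridised to Affymetrix Mouse Gene 1.0 ST arrays, with 1 array for each of 3 sorted groups. The first group was Esam(lo) GFP(hi) cells of RBPJflox/flox mice carrying CD11c-Cre, labelled RBPJnull. The second was Esam(hi) GFP(lo) cells, and the third Esam(lo) GFP(hi) cells, both of Cre-negative littermates, which carried the same floxed alleles. All groups carried the Cx3cr1-GFP reporter, and each array held RNA from the joined spleens of 2 to 3 mice. CD11c-Cre acts in any cell that expresses CD11c, so the deletion was not limited to DCs. Ages and sexes were not given in the sources used here.

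With 1 array a group there are no replicates, no test was possible, and every difference below is between arrays and has no replicate check. Values are log2 expression values as deposited. A gene was called above background on an array when it exceeded the 95th percentile there of 1194 genes of smell and pheromone receptors (olfactory and vomeronasal), which was 6.87 on the RBPJnull-labelled array, 7.17 on the control Esam(hi) array and 6.76 on the control Esam(lo) array. A gene was called different when 2 arrays were at least 2-fold apart and the brighter one was above its background. Rbpj itself read 10.04 on the RBPJnull-labelled array, 9.85 on the control Esam(hi) array and 9.85 on the control Esam(lo) array. It was thus not lower under the deletion label, and since the probes inside the deleted exons are not known here, the array does not check that label and directions drawn from it rest on it. All 10 genes listed as DC markers, among them Flt3, Zbtb46 and Itgax, were above background on every array, and none was 2-fold apart in any comparison. Itgax encodes CD11c, on which the cells were sorted, so its presence was set by the gate. Esam, the sort marker, read 6.12 on the RBPJnull-labelled array, 7.79 on the control Esam(hi) array and 6.57 on the control Esam(lo) array, above background only on the Esam(hi) array.

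Adhesion GPCRs join a long extracellular region to a receptor of 7 membrane helices. In most of them the extracellular region cuts itself close to the membrane, and the short stretch that remains can act as a tethered activator when a ligand on a neighbouring cell or in the matrix pulls on the receptor. Several mark leukocytes: the product of Adgre1 is the classical surface marker of mouse macrophages, and CD97, the product of Adgre5, is carried by most leukocytes and binds CD55. In the mouse spleen, CD97 on DCs is known to sense CD55 on red blood cells and to help hold the DCs in blood-exposed zones, through a G protein of the G13 class. The latrophilins (Adgrl genes) are best known as synaptic receptors for teneurin and FLRT proteins.

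Among the 9 measured receptors, 2 separated the arrays by 2-fold or more, and they did so in different ways. Adgre4 was bright on the RBPJnull-labelled array, not above background on the control Esam(hi) array and bright on the control Esam(lo) array. Adgrl3 was lowest on the RBPJnull-labelled array, highest on the control Esam(hi) array and intermediate on the control Esam(lo) array. Adgrg6 was 1.72-fold higher on the RBPJnull-labelled array, compared with the control Esam(lo) array, short of the rule. The other 6, including the macrophage marker gene Adgre1 and the CD97 gene Adgre5, spanned at most 0.41 log2 units over the 3 arrays. All 9 were above background on at least 1 array, Adgrl2 on 1 only.

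**Figure D1:**
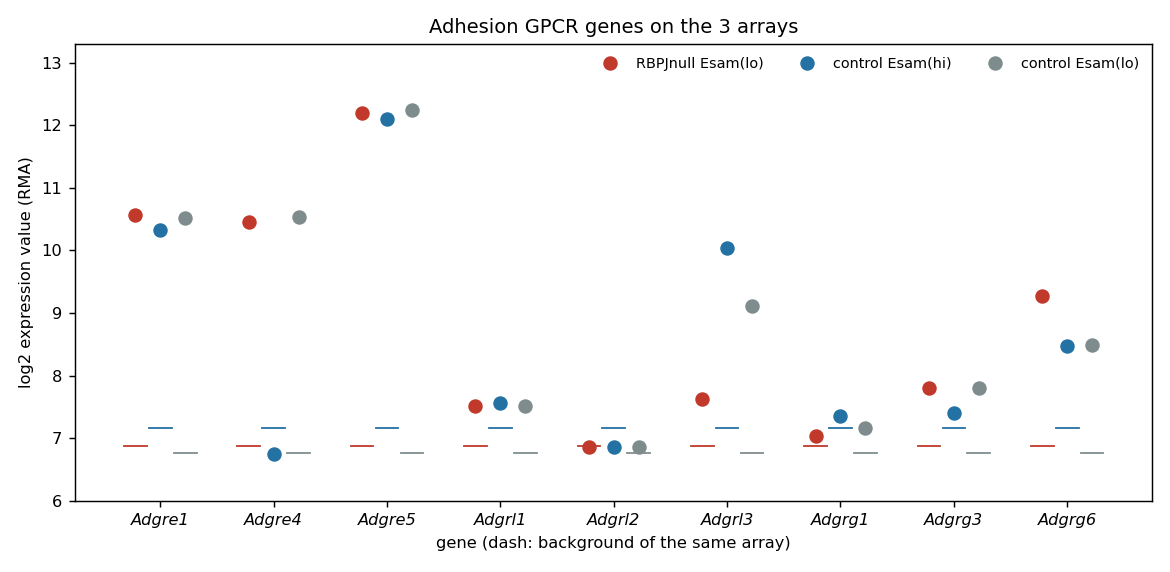
Log2 expression values (vertical axis) of the 9 measured adhesion GPCR genes (horizontal axis) on the RBPJnull-labelled, control Esam(hi) and control Esam(lo) arrays, 1 point an array. Short dashes mark each array's background. Adgre4 stands at 10.45, 6.74 and 10.53, and Adgrl3 at 7.62, 10.03 and 9.11, in that order of arrays.

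Adgre4 (probe set 10445953) encodes FIRE, a receptor with EGF repeats that resembles the product of Adgre1 and is found in the mouse on myeloid cells. Its log2 value was 10.45 on the RBPJnull-labelled array, 6.74 on the control Esam(hi) array and 10.53 on the control Esam(lo) array. Both Esam(lo) arrays were thus close together and the Esam(hi) array was below its background of 7.17. Since the dim value is only a bound, Adgre4 was at least 10.3-fold lower on the control Esam(hi) array, compared with the control Esam(lo) array. It was at least 9.73-fold higher on the RBPJnull-labelled array, compared with the control Esam(hi) array. Between the RBPJnull-labelled and control Esam(lo) arrays the log2 difference was -0.08.

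Monocyte genes moved with Adgre4, as did some markers of other cells. The 6 measured markers of classical monocytes, Ccr2, Csf1r, Lyz2, Fn1, Vcan and Chil3, were all above background on the RBPJnull-labelled array, 4 were on the control Esam(hi) array, and 6 on the control Esam(lo) array. Their mean log2 value was 10.33 on the RBPJnull-labelled array, 7.71 on the control Esam(hi) array and 10.31 on the control Esam(lo) array. Of the 6, 5 were at least 2-fold lower on the control Esam(hi) array, compared with the control Esam(lo) array. Over all genes, 11.3% were called lower in that comparison. Of the 7 markers of patrolling monocytes, such as Ace and Treml4, 6 were at least 2-fold lower in the same comparison. The other, Nr4a1, read 13.36 on every array. The mean values of the 7 were 10.19, 8.97 and 10.50 on the RBPJnull-labelled, control Esam(hi) and control Esam(lo) arrays. Cx3cr1 was among the 6 and in these means. Its GFP reporter was part of the sort, so its direction was set by the gate. Of 6 markers of cDC1, the CD8+ type of DC, 3 were above background, and Clec9a (9.20, 6.15 and 9.20 on the same arrays) and Irf8 (10.07, 8.58 and 10.29) were called lower in control Esam(hi) cells, by at least 4.10-fold and by 3.27-fold, while Xcr1, Cd8a and Itgae were not above background on any array. Of 5 plasmacytoid DC markers, Tcf4 was 2.32-fold lower in the same comparison, and Siglech and Ly6d were not above background on any array. The part of any of these cells in the Adgre4 difference was not tested, and in sorted bulk RNA fewer cells of a type and less RNA per cell cannot be told apart. Of 6 eosinophil markers, Siglecf alone was above background, at 7.31, 7.61 and 7.31 in the same order, and Epx, Prg2, Ccr3, Il5ra and Ear6 were not above background on any array.

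The bases before the annotated start of Adgre4 are shown because among the receptors this gene differed most between the control arrays. They come from RefSeq (GRCm38.p6, chr17:55749734-55749983, + strand), are written 5′ to 3′, and CG dinucleotides are in capitals.
Adgre4: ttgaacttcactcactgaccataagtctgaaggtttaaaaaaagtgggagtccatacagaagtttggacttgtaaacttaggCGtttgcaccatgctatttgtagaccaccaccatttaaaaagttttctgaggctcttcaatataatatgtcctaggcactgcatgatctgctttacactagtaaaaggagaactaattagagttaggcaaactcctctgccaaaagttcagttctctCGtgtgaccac
These 250 bases held 2 CG dinucleotides and 39.6% G and C, against medians of 6 and 52.4% over 32851 RefSeq windows of the same length.

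Adgre1 (probe set 10446282), the macrophage marker gene, read 10.56 on the RBPJnull-labelled array, 10.32 on the control Esam(hi) array and 10.52 on the control Esam(lo) array. It was far above background on all 3, including the Esam(hi) array where Adgre4 was not. Its control difference of -0.20, Esam(hi) minus Esam(lo), lay above the median of -0.30 over all genes above background, and it turned to 0.09 after quantile normalization and to 0.23 with the level trend removed, so no direction is given. Of 11 red pulp macrophage markers, 7 were above background on the RBPJnull-labelled array, 5 on the control Esam(hi) array and 7 on the control Esam(lo) array, with mean log2 values of 7.08, 6.64 and 7.09 in that order. C1qb and Hmox1 were 3.12-fold and 2.12-fold lower in control Esam(hi) than in control Esam(lo) cells, where 11.3% of all genes were called lower. C1qb and Axl were called higher in RBPJnull-labelled than in control Esam(hi) cells, where 12.9% of all genes were. The other 4 macrophage markers, Cd163, Slc40a1, Mertk and Cd5l, were not above background on any array. Spic, the transcription factor of these macrophages, read 7.52 on the RBPJnull-labelled array, 6.89 on the control Esam(hi) array, below background there, and 7.68 on the control Esam(lo) array.

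Adgre5 (probe set 10580033), the CD97 gene, read 12.20 on the RBPJnull-labelled array, 12.11 on the control Esam(hi) array and 12.25 on the control Esam(lo) array. The 3 arrays were within 1.10-fold of each other, and the sign of the control difference (-0.14) turned with quantile normalization (0.11) and with trend removal (0.17). Gna13, which encodes the alpha subunit of G13, read 11.40 on the RBPJnull-labelled array, 11.28 on the control Esam(hi) array and 11.25 on the control Esam(lo) array. Cd55, the gene of the CD97 ligand, read 4.53 on all 3 arrays and was not above background on any of them. The receptor and its G protein subunit were therefore measured well above background in all 3 groups.

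Adgrl3 (probe set 10522749) encodes latrophilin 3, known as a receptor of neurons. Its log2 value was 7.62 on the RBPJnull-labelled array, 10.03 on the control Esam(hi) array and 9.11 on the control Esam(lo) array. All 3 values were above background, and the RBPJnull-labelled value lay outside the range of the controls, below the Esam(lo) cells that share its sort gate. Adgrl3 was 2.80-fold lower on the RBPJnull-labelled array, compared with the control Esam(lo) array, a log2 difference of -1.49, at place 5 from the lowest of 9541 genes. It was 5.31-fold lower on the RBPJnull-labelled array, compared with the control Esam(hi) array, a log2 difference of -2.41, at place 8 from the lowest of 9312 genes.

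Between the controls, Adgrl3 in Esam(hi) cells was 1.89-fold above Esam(lo) cells, just short of 2-fold. This log2 difference of 0.92 was at place 100 from the highest of 9466 genes, most of which were lower on the Esam(hi) array, and it lay 1.22 above the median of all genes. It passed 2-fold after quantile normalization (1.22) and with the level trend removed (1.43), but not with the arrays centred on their medians (0.81). Under each of these scalings the RBPJnull-labelled value was the lowest and the Esam(hi) value the highest. No monocyte marker was called between the RBPJnull-labelled and control Esam(lo) arrays. Log2 differences of the patrolling list there were -0.93 for Ace, -0.63 for Cd300e, -0.41 for Itgal and -0.18 for Spn. Treml4 was at -0.03, and Nr4a1 and Cx3cr1 were at 0. The classical list went both ways. Csf1r (-0.36), Vcan (-0.26) and Fn1 (-0.15) were lower, and Chil3 (0.52), Ccr2 (0.20) and Lyz2 (0.14) were higher. Over all genes, 0.0734% were called higher and 0.189% lower in that comparison. The part of these monocyte genes in the Adgrl3 difference was not tested. Esam had the same order of values as Adgrl3, although its RBPJnull-labelled and control Esam(lo) values were both below background.

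The RefSeq table holds 3 windows for Adgrl3, in part overlapping. The first is shown because this was the only receptor called lower under the RBPJnull label, with its build and strand (GRCm38.p6, chr5:81020321-81020570, + strand), 5′ to 3′, with CG dinucleotides in capitals.
Adgrl3: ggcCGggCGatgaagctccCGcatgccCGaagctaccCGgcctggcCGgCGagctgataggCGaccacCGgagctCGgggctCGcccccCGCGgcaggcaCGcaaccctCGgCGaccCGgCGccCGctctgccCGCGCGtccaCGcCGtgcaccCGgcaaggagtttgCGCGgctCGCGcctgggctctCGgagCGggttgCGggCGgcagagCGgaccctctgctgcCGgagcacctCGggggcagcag
It held 36 CG dinucleotides and 76.8% G and C, above the upper quartiles of 16 and 61.2% over all windows. RBPJ binds DNA at the core TGGGAA, which was searched in the 250 bases before each start on both strands. None of the 11 windows of the 8 receptors in the table, Adgrg5 among them, held it, against 21.6% of all 32851 windows. GAGGAA, the core bound by the myeloid factor PU.1 and by other ETS factors, was in 4 of the 11, those of Adgrg3, Adgrg5, Adgrl1 and 1 of Adgrl3, against 23.3% of all windows. These are letter matches in short windows and say nothing of binding elsewhere.

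The other latrophilins were dim. Adgrl1 (probe set 10573234), the latrophilin first found as a receptor of a spider toxin, read 7.52 on the RBPJnull-labelled array, 7.56 on the control Esam(hi) array and 7.52 on the control Esam(lo) array. Adgrl2 is spread over 8 probe sets, and the brightest (10502776) read 6.85 on all 3 arrays, above background only on the control Esam(lo) array. Its other 7 probe sets lay between 4.42 and 6.42, below background throughout. Deposited values were exactly equal on the RBPJnull-labelled and control Esam(lo) arrays for 52.0% of all genes, and the cause was not tested. Such ties, also seen for Adgrl1 and Adgrg3, are therefore no evidence of equal expression.

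The 3 measured receptors of the G subfamily were Adgrg1, Adgrg3 and Adgrg6. Adgrg6 (probe set 10367982), the gene of GPR126, a receptor needed for myelination by Schwann cells, read 9.28 on the RBPJnull-labelled array, 8.47 on the control Esam(hi) array and 8.50 on the control Esam(lo) array. The controls were 0.02 log2 units apart and the RBPJnull-labelled array was above both. The difference from the control Esam(lo) array was 0.78, at place 17 from the highest of 9541 genes, and stayed between 0.74 and 0.78 under the other scalings. That from the control Esam(hi) array was 0.81 as deposited and 0.34 with the level trend removed, and neither comparison reached 2-fold.

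Adgrg3 (probe set 10574276), the gene of GPR97, a receptor known on neutrophils, read 7.81 on the RBPJnull-labelled array, 7.40 on the control Esam(hi) array and 7.81 on the control Esam(lo) array. The Esam(hi) value was lower than both others under each scaling, by at most 0.52 log2 units. As deposited, Esam(hi) minus control Esam(lo) was -0.41, beside a median of -0.30 over all genes above background. RBPJnull-labelled minus control Esam(hi) was 0.41, beside a median of 0.31. Adgrg3 thus stood close to the shift of all genes in both. Most neutrophil genes were also lower on the control Esam(hi) array. Of 10 markers, 9 were above background on the RBPJnull-labelled array, 7 on the control Esam(hi) array and 9 on the control Esam(lo) array. The mean values of the 10 were 9.43, 8.57 and 9.23 in that order. Between the controls 5 were called lower, where 11.3% of all genes were. Mpo (8.74, 9.28 and 8.31) and Elane (8.74, 8.95 and 8.60), granule genes of early neutrophils, went the other way and were highest on the Esam(hi) array. The part of such cells in the Adgrg3 values was not tested. Adgrg1 (probe set 10574259), the gene of GPR56, a receptor for collagen III, read 7.03 on the RBPJnull-labelled array, 7.36 on the control Esam(hi) array and 7.16 on the control Esam(lo) array, in each case only slightly above background. Of 8 natural killer cell markers, cells that carry GPR56 in humans, Nkg7 alone was above background, at 7.47 on every array.

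Set against all genes, the receptors gave few calls. Between control Esam(hi) and control Esam(lo) cells, 0 of 9 receptors were called higher, where 0.792% of 9466 genes were, and 1 was called lower, where 11.3% of genes were. Their median log2 difference was -0.02, against -0.30 over all genes. Between RBPJnull-labelled and control Esam(lo) cells, 0 of 9 were higher, where 0.0734% of 9541 genes (7 genes) were, and 1 was lower, where 0.189% (18 genes) were. The median difference was 0 for both the receptors and all genes. Between RBPJnull-labelled and control Esam(hi) cells, 1 of 8 receptors above background was higher, where 12.9% of 9312 genes were, and 1 was lower, where 1.18% were. The median difference was 0.17 for the receptors and 0.31 for all genes. The receptors were chosen with these values known, so nothing is read from the shares.

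The 3 comparisons share arrays and are not independent. Differences that involve the Esam(hi) array went with level, and its calls leaned one way: 6.57% of the genes called between the controls were higher on the Esam(hi) array as deposited, 18.7% after quantile normalization and 30.3% with the level trend removed. In the RBPJnull-labelled against control Esam(hi) comparison, 91.6% of called genes were higher as deposited, 77.3% after quantile normalization and 69.7% with the trend removed. The receptors kept 1 sign under every scaling in 4, 6 and 5 of 9 cases in the 3 comparisons, and Adgre4, Adgrl3 and Adgrg1 did so in all 3. For Adgrg1 these are signs of small differences near background. It read 7.03, 7.36 and 7.16 on the RBPJnull-labelled, control Esam(hi) and control Esam(lo) arrays, where background was 6.87, 7.17 and 6.76.

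**Figure D2:**
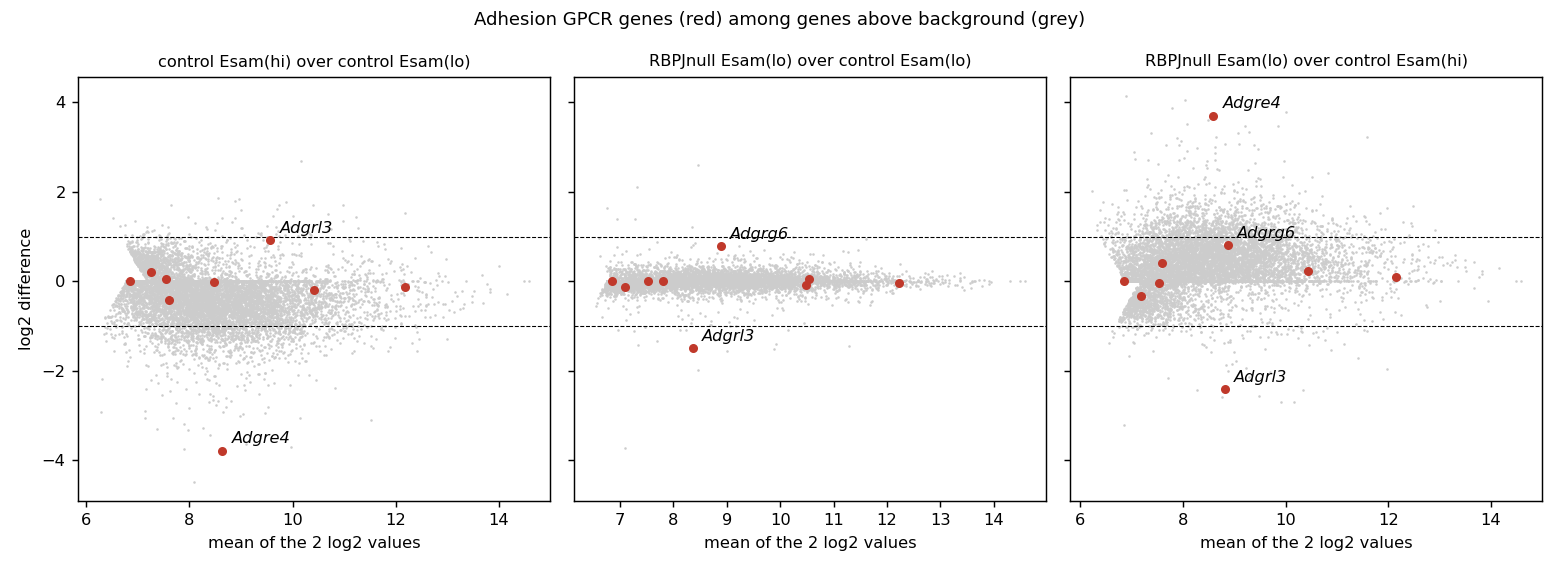
Log2 difference (vertical axis) against the mean of both log2 values (horizontal axis) for genes above background (grey) and the 9 adhesion GPCR genes (red), in 1 panel a comparison. Dashed lines mark 2-fold. Adgre4 lies at -3.79 and 3.70 in the comparisons with the Esam(hi) array, where its value was below background, and Adgrl3 lies at -1.49 in the middle panel, where the grey points are narrow.

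**Figure D3:**
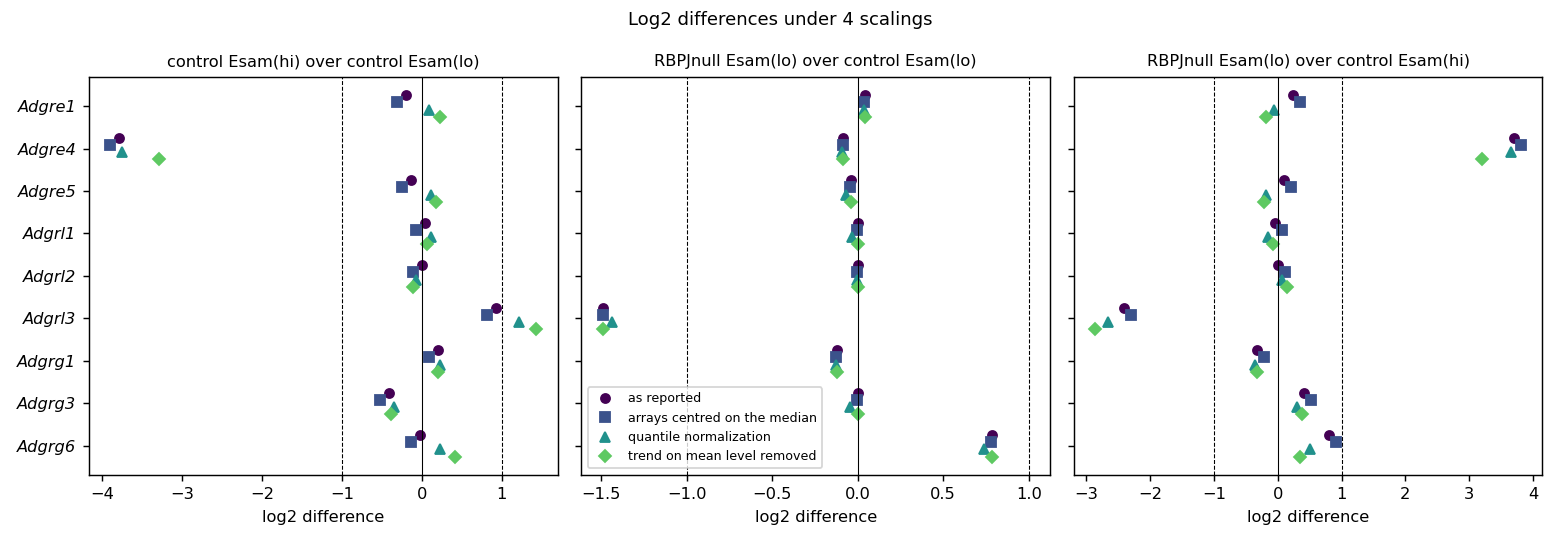
Log2 differences (horizontal axis, with its own range in each panel) of each receptor (vertical axis) as deposited and under 3 other scalings. Dashed lines mark 2-fold and the solid line equality. Adgrl3 between the controls lies at 0.92, 0.81, 1.22 and 1.43, on both sides of the 2-fold line, while Adgre4 stays beyond it in both comparisons with the Esam(hi) array.

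Of the 20 other adhesion GPCR genes of the mouse, 19 had a probe set, and 3 were above background: Adgra1, Adgra2 and Celsr1. Adgra2, a receptor of blood vessels in the brain, read 8.82 on the RBPJnull-labelled array, 8.94 on the control Esam(hi) array and 8.82 on the control Esam(lo) array. Adgra1 read 7.05, 7.41 and 7.05, and Celsr1, a cadherin-type receptor of planar cell polarity, read 7.55 on every array. None of the 3 was called in any comparison, and 16 others, among them the endothelial receptors Adgrl4 and Adgrf5, were not above background on any array. Of 8 endothelial markers, Pecam1 alone was above background.

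Of 29 ligands and membrane partners of the receptors, 28 had a probe set and 11 were above background on at least 1 array. All measured FLRT genes and 3 of 4 teneurin genes, which encode latrophilin ligands, were below background, as was Col3a1, the collagen ligand of GPR56. Tenm4 read 7.80 on the RBPJnull-labelled array, 8.08 on the control Esam(hi) array and 7.96 on the control Esam(lo) array. Cd81, a tetraspanin that associates with GPR56, read 10.22 on the RBPJnull-labelled array, 9.06 on the control Esam(hi) array and 10.53 on the control Esam(lo) array. It was 2.77-fold lower on the control Esam(hi) array, compared with the control Esam(lo) array, short of 2-fold with the trend removed. Itga5, an integrin subunit that binds CD97 in humans, read 8.62 on the RBPJnull-labelled array, 7.15 on the control Esam(hi) array, below background there, and 8.71 on the control Esam(lo) array. It was at least 2.92-fold lower on the control Esam(hi) array, compared with the control Esam(lo) array, and was called under each scaling. No partner was called between the RBPJnull-labelled and control Esam(lo) arrays, where the list's median was -0.12 against 0 for all genes. Over all genes, 0.0734% were called higher and 0.189% lower there.

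The G proteins, receptor kinases and arrestins through which such receptors signal were broadly present, with 18 of 24 measured genes above background. Between the controls 5 had Esam(hi) values at least 2-fold below those of Esam(lo) cells and none was higher: Gna12, Gnai2, Gnai3, Gng12 and Arrb1. Over all genes, 11.3% were called lower and 0.792% higher in that comparison. Gnai2, the main inhibitory G protein subunit of leukocytes, read 11.96 on the RBPJnull-labelled array, 11.02 on the control Esam(hi) array and 12.03 on the control Esam(lo) array. Arrb1, which encodes an arrestin that ends receptor signalling, read 9.77, 8.47 and 9.76 on the same arrays. None of the 5 passed 2-fold after quantile normalization or trend removal, and the list's median of -0.59 stood beside -0.30 for all genes. No gene of this list was called between the RBPJnull-labelled and control Esam(lo) arrays, where 0.0734% of all genes were higher and 0.189% lower. On the RBPJnull-labelled array 3, Gnai3, Gng12 and Arrb1, were called higher than on the control Esam(hi) array, where 12.9% of all genes were.

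**Figure D4:**
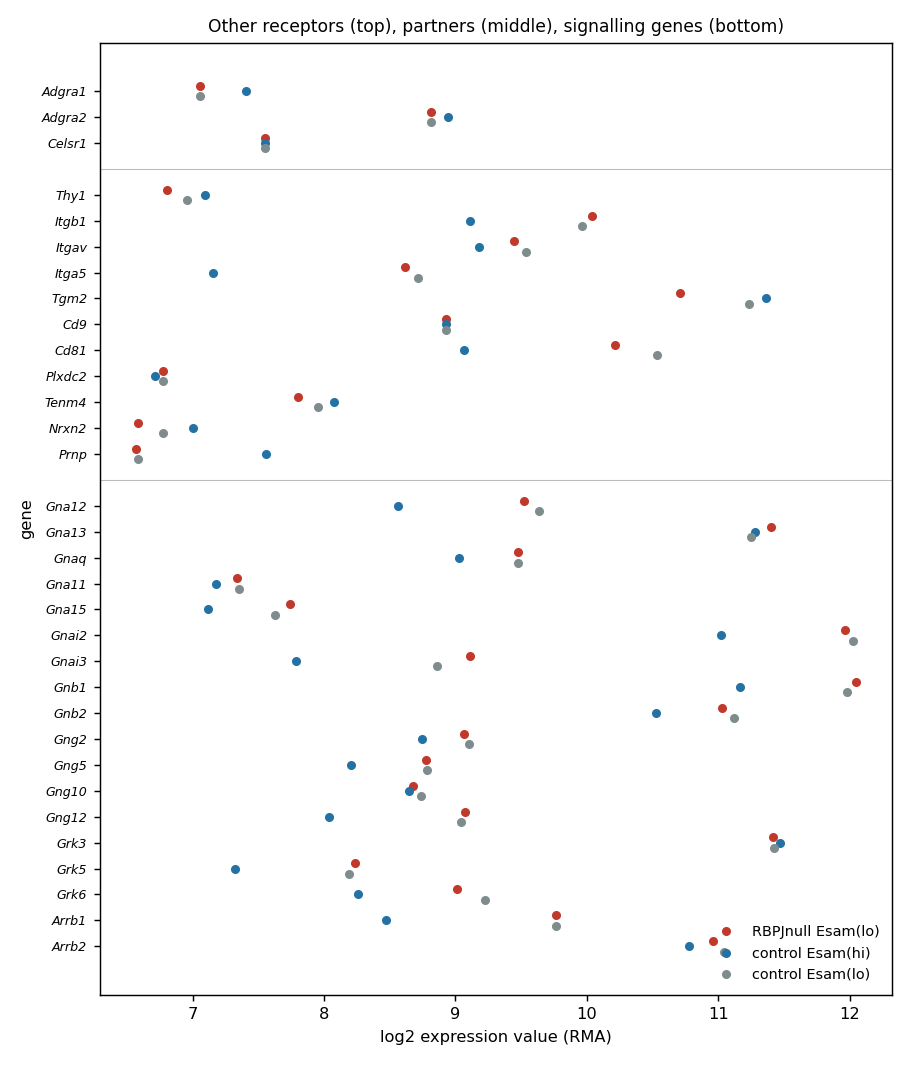
Log2 expression values (horizontal axis) on the RBPJnull-labelled, control Esam(hi) and control Esam(lo) arrays for the other adhesion GPCR genes, the partners and the signalling genes above background on at least 1 array (vertical axis), 1 point an array. The Esam(hi) points of Itga5, Cd81 and Arrb1 stand at 7.15, 9.06 and 8.47, to the left of both Esam(lo) points.

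The genes most like Adgre4 and Adgrl3 over the 3 arrays were found by the Euclidean distance between values centred on each gene's mean, among 9359 candidates. Nearest to Adgre4 were Wfdc17 (11.91, 8.11 and 11.81 on the RBPJnull-labelled, control Esam(hi) and control Esam(lo) arrays, distance 0.13), the lectin gene Clec4a3 (distance 0.26) and Fn1, encoding fibronectin (distance 0.27). Nearest to Adgrl3 were Apol7c, an apolipoprotein L gene (9.13, 11.56 and 10.65 on the same arrays, distance 0.03), Gpm6b, a membrane glycoprotein gene (6.63, 8.80 and 8.06, distance 0.17), and Stra6l, encoding a receptor for retinol-binding protein (8.22, 10.35 and 9.77, distance 0.26). With 3 arrays a shape holds only 2 free differences, so this likeness is a description, and for Adgre4 it rests on an Esam(hi) value below background.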

How the data were processed

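Each deposited value is the log2 expression of 1 probe set on 1 array, made with RMA and Affymetrix Expression Console per the submitters' processing notes; versions and the arrays normalized together were not given in the sources used here. Probe sets with 1 annotated gene were used (21789 of 35556; 1621 have several genes and 12146 none). Of these, 21698 Entrez numbers were found in a RefSeq gene table of GRCm38.p6 and no symbol changed. A gene with several probe sets took the values of its brightest one (by mean value). With 1 array per group no test, SD or p-value was computed; the number of arrays limits the precision. The denominator of a comparison is the genes whose brighter array was above its background. Folds are 2 to the log2 difference, or, where the dim array was below background, a lower bound against that background. The caller was run on a copy of 1 array with known shifts larger than 2-fold and no added noise, which checks the code and not error rates. Named genes were all members, other adhesion GPCRs above background, list genes at least 2-fold apart, with Cd55, Gna13 and Gnai2, the sort markers, Rbpj, and the 3 nearest genes of each member with a range of 2-fold. Cell type markers and list genes outside that rule, such as Spic, Tenm4 and Col3a1, were named after their values were seen. Part of the signalling gene list is not reported here. Members and lists were chosen with earlier results of these data known. Alternatives were other filters, scalings (the trend as a running median over 501 genes), thresholds and probe set choice. Python 3.11.15, numpy 2.4.6 and pandas 2.3.3 were used.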

Additional observations from a re-analysis of the deposited data

How the results depend on the processing

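No paired analysis was possible because each group has 1 array, and for the same reason no replicate could be left out. Under the planned filters, and under 3 scalings and the mean of a gene's probe sets, Adgre4 stayed called lower on the control Esam(hi) array and Adgrl3 stayed called lower on the RBPJnull-labelled array against both controls. Between the controls, 1 receptor (Adgrl3) was called higher on the Esam(hi) array after quantile normalization, with the level trend removed and at 1.5-fold, against 0 as reported. Between the RBPJnull-labelled and control Esam(lo) arrays, 1 (Adgrg6) was higher at 1.5-fold and 0 were lower at 3-fold. Between the RBPJnull-labelled and control Esam(hi) arrays, 2 were higher at 1.5-fold. Of 189 single values under the filters and scalings, 140 kept their sign and call, 2 (Adgrl3 between the controls) became called and 12 small differences turned sign. The remaining values were exact ties as reported, of which 20 stayed ties and 15 took a small difference that was not called. Much of this stability was fixed by the settings. A filter cannot change a log2 difference, and the mean of probe sets can change only Adgrl2, the only receptor with several. Trend removal also left every receptor difference between the RBPJnull-labelled and control Esam(lo) arrays as reported.

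Over all genes, 75 were higher and 1066 lower on the control Esam(hi) than on the control Esam(lo) array as deposited, 47 and 1463 with arrays centred on the median, 150 and 651 after quantile normalization, and 198 and 455 with the trend removed. On the RBPJnull-labelled against the control Esam(hi) array the numbers were 1203 and 110 as deposited, 1580 and 72, 719 and 211, and 532 and 231 in the same order. The scalings of the gene lists were added after seeing the data. Among the partners, quantile normalization called 1 higher (Prnp) and trend removal left 1 lower (Itga5) on the control Esam(hi) than on the control Esam(lo) array. On the RBPJnull-labelled against the control Esam(hi) array, both scalings called 1 partner higher (Itga5) and 1 lower (Prnp after quantile normalization, Tgm2 with the trend removed). Among the signalling genes, 0 were called between the controls after either scaling. Against the control Esam(hi) array, 6 signalling genes were higher on the RBPJnull-labelled array with median centring, 1 after quantile normalization and 0 with trend removal. The cause of these shifts was not tested. A receptor below background has only a bound, which limits Adgre4 on the control Esam(hi) array and Adgrl2 on the RBPJnull-labelled and control Esam(hi) arrays.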
